A study of Mus musculus with 6 samples.

Results

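The dystrophin-glycoprotein complex genes followed here were Dmd, Dag1, Sgca, Sgcb, Sgcd, Sgce, Sspn and Utrn, 8 of the 18193 genes named on the array. They were taken as the probe sets annotated to 1 of these symbols alone, which gave 20 probe sets, and each gene was represented by its probe set with the highest mean over all 6 arrays. Messenger RNA of whole mammary glands was compared between 3 wild-type (WT) and 3 Cav-3 knockout (Cav-3KO) virgin females, 4 months of age and untreated, both on the FVB/N strain background. The knockout removes caveolin-3, the caveola coat protein of muscle cells. The labels state neither which part of Cav3 was deleted nor if the glands of a group are from separate mice, so p-values measure only the spread between these samples, which may be technical. Every gland gave 1 single-channel array, and the number of arrays limits the precision.

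The dystrophin-glycoprotein complex links the actin cytoskeleton to the basement membrane. Dystrophin, or its relative utrophin, binds actin inside the cell and the transmembrane chain of dystroglycan at the membrane, and the sugar-bearing outer chain of dystroglycan binds laminin. The sarcoglycans and sarcospan form a side group in the membrane that holds the complex together, and syntrophins, dystrobrevins and nitric oxide synthase dock on its inner face. In skeletal muscle its loss causes muscular dystrophy, and caveolin-3 is known to bind dystroglycan there, whereas in the mammary gland dystroglycan is known as a laminin receptor of epithelial cells.

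All values are log2 values, 1 per probe set and array, and differences are knockout minus wild type on that scale. Array medians lay between 5.77 and 5.80, and correlations over all probe sets were 0.990 to 0.995 within a genotype and 0.977 to 0.987 between genotypes. Mean levels of the luminal epithelium markers were 9.08 to 10.41 and those of the white adipocyte markers 10.55 to 11.61. The targeted gene, Cav3, was represented by 1 probe set with log2 values of 4.79, 5.02 and 4.74 in WT 1 to 3 and 4.76, 4.83 and 4.72 in Cav-3KO 1 to 3. With a difference of −0.08 ± 0.10 (SE, adjusted p = 0.679 by limma), this probe set gave no check of the labelled genotypes. Of all genes, 1392 (7.65%) were higher and 1549 (8.51%) lower in knockout at an adjusted p under 0.05, and the median difference was −0.009. Leaving out 1 array lowered these counts most for Cav-3KO 3, to 629 and 606, and to 845 and 970, 729 and 951, and 660 and 810 without WT 1, 2 and 3.

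Of the 8 genes, the sarcoglycans Sgcb, Sgce and Sgca fell in knockout and 0 rose, by limma with Benjamini-Hochberg adjustment over all probe sets. The 3 falls are 37.5% of the 8 genes, where 8.51% of all genes were lower and 7.65% higher at the same threshold. At an unadjusted p under 0.05, 6 of the 8 genes were lower and 1 higher, where 17.3% of all genes were lower and 16.3% higher. Without WT 2 or Cav-3KO 3, 1 gene, Sgcb, remained lower. Of the 20 probe sets 6 were lower and 1 higher, against 7.25% and 6.39% of all probe sets with 1 gene symbol. The median difference of the 8 genes was −0.43. By sign 6 genes were below wild type, and Dmd and Dag1 were above it. The groups did not overlap, with knockout below, for 5 of the 8 genes (19.8% of all genes), and with knockout above for 1 (18.5% of all genes). In whole glands, fewer cells of a type and less RNA per cell cannot be told apart.

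**Figure D1:**
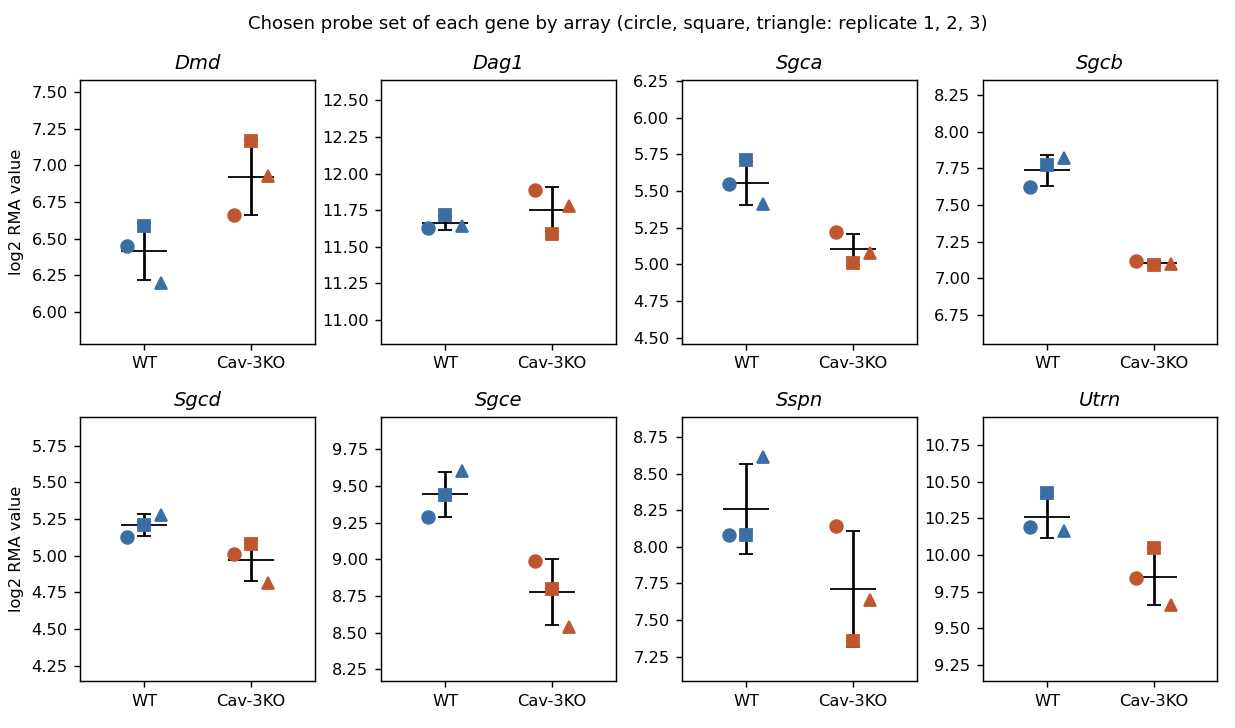
Log2 value of the chosen probe set of each gene (y axis) in the 3 WT and the 3 Cav-3KO arrays, with the group mean (horizontal line) and SD (bars), each panel spanning the same range. Sgcb shows the widest gap between the groups, 0.50, while the groups of Dag1 and Sspn overlap.

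The promoter letters of Sgca and Sgcb, the sarcoglycan genes that fell and have an entry in the RefSeq promoter table, are shown with both dystrophin starts that the table holds, since Dmd went the other way by sign. RefSeq promoters of build GRCm38.p6 were matched for 7 of the 8 genes, and the 250 bases before each start are given on the gene's strand, 5′ to 3′. Capitals mark motifs searched on both strands. They are the E-box, bound by muscle regulators such as MyoD and spelled CANNTG, the GC box of Sp factors, whose letters are GGGCGG, and the TATA box that positions the polymerase, searched as TATAAA. The other motifs are the upstream box spelled CCAAT and the CArG box of serum response factor. Among all 32851 promoters of that length, 66.2% held an E-box, 32.7% a GC box, 12.4% a TATA box, 33.8% the upstream box and 1.47% a CArG box.
Sgca, chr11:94976328-94976577, minus strand: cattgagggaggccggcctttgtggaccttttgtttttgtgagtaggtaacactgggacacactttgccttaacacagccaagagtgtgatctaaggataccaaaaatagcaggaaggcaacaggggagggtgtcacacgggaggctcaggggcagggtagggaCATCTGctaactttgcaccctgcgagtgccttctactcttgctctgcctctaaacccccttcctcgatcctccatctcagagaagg
Sgcb, chr5:73647738-73647987, minus strand: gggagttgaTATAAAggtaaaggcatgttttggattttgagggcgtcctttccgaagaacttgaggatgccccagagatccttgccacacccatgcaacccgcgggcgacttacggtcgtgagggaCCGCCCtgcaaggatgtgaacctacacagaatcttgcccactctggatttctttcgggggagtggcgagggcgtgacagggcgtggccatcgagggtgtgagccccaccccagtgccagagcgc
Dmd upstream start, chrX:82948620-82948869, plus strand: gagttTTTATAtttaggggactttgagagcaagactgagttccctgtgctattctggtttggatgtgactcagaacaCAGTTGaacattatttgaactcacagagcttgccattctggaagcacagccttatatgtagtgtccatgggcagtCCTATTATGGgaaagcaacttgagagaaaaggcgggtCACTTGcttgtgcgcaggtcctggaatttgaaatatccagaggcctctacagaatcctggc
Dmd downstream start, chrX:85048045-85048294, plus strand: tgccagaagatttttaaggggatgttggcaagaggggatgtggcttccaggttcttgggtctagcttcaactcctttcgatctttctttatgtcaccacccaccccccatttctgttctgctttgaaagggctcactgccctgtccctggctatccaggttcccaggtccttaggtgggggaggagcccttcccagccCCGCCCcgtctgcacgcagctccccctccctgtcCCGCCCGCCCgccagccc
The window of Sgca, a gene best known from striated muscle, held 1 E-box and 4 CpG dinucleotides in 52.8% GC. That of Sgcb held 1 GC box and 1 TATA box, no E-box, and 14 CpG dinucleotides in 58.4% GC, against medians of 6 CpG and 52.4% GC over all promoters. The upstream Dmd start had 2 E-boxes, 1 TATA box and 1 CArG box in 45.2% GC. The downstream Dmd start had 3 GC boxes, the last pair overlapping each other, and no E-box in 60.0% GC. The TATA matches of Sgcb and of the upstream Dmd start lie at the end of the window farthest from the start, and that of Dmd is on the opposite strand. A match describes these letters and is not a measured binding site.

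Sgcb encodes beta-sarcoglycan, which with delta-sarcoglycan forms the core of the sarcoglycan group, and lies on chromosome 5 at 73632749 to 73647737 (GRCm38.p6). Its log2 values were 7.62, 7.77 and 7.82 in WT 1 to 3 and 7.12, 7.09 and 7.10 in Cav-3KO 1 to 3. The 3 knockout arrays were nearly equal (SD 0.01) and all below wild type, with a gap of 0.50 between the groups. Sgcb fell by 0.64 ± 0.09 (SE), 1.55-fold lower (95% confidence interval −0.84 to −0.43, adjusted p = 0.00566 by limma). Its other probe sets fell too, by 0.74 ± 0.10 and 0.85 ± 0.15 (adjusted p = 0.00535 and 0.0118), so all 3 had the same direction and call. A difference at least as large as that of Sgcb, in either direction, was seen in 11.7% of all genes. Sgcb passed the threshold in all 16 alternative analyses, with adjusted p between 0.00483 and 0.0275.

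Sgce encodes epsilon-sarcoglycan, a relative of alpha-sarcoglycan made in many tissues and expressed from the paternal copy of an imprinted gene on chromosome 6 (4674350 to 4747204). Wild-type values were 9.29, 9.44 and 9.60, and knockout values were 8.99, 8.80 and 8.54. All knockout arrays lay below all wild-type arrays, by at least 0.30. The gene fell by 0.66 ± 0.14 (SE), 1.58-fold lower (adjusted p = 0.0206). Its second, dimmer probe set lay below wild type by sign, at −0.48 ± 0.15, and missed the threshold (adjusted p = 0.0780). The call on Sgce was lost without WT 2, WT 3 or Cav-3KO 3 (adjusted p = 0.0607, 0.0741 and 0.0643, with differences of −0.66, −0.58 and −0.55).

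Sgca encodes alpha-sarcoglycan, the sarcoglycan found chiefly in striated muscle, and lies on chromosome 11 at 94962777 to 94976327. Its only probe set read 5.55, 5.71 and 5.41 in WT 1 to 3 and 5.22, 5.01 and 5.08 in Cav-3KO 1 to 3. The groups were separated by 0.19, and the mean lay at percentile 43.8 of all probe sets. Sgca fell by 0.45 ± 0.11 (SE), 1.37-fold lower (95% confidence interval −0.70 to −0.20, adjusted p = 0.0352). This is a borderline call. It was lost in 7 of 15 alternatives: without WT 1, WT 2, Cav-3KO 2 or Cav-3KO 3 (adjusted p = 0.0922, 0.102, 0.0704 and 0.110), with cyclic loess (0.0505), with the replicate number as a block (0.0566) and with skeletal muscle level as a covariate (0.105). Over these alternatives the difference stayed between −0.52 and −0.37.

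Sgcd encodes delta-sarcoglycan, the partner of beta-sarcoglycan, on chromosome 11 (46971077 to 47989451). Its 1 probe set read 5.13, 5.21 and 5.28 in wild type and 5.01, 5.08 and 4.81 in knockout. The groups were separated by only 0.04, and the difference of −0.24 ± 0.10 (SE) did not pass after adjustment (unadjusted p = 0.0490 and adjusted p = 0.178 by limma). Sspn encodes sarcospan, a membrane-spanning protein that binds the sarcoglycans, on chromosome 6 (145931873 to 145965225). Its values were 8.08, 8.08 and 8.61 in wild type and 8.14, 7.36 and 7.64 in knockout. Cav-3KO 1 lay inside the wild-type range, so the groups overlapped. The difference was −0.55 ± 0.22 (SE, adjusted p = 0.152; two-sided exact permutation p = 0.3, where 3 against 3 arrays allow no p below 0.1). The second Sspn probe set gave −0.58 ± 0.17 (adjusted p = 0.0685), and its groups did not overlap.

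**Figure D2:**
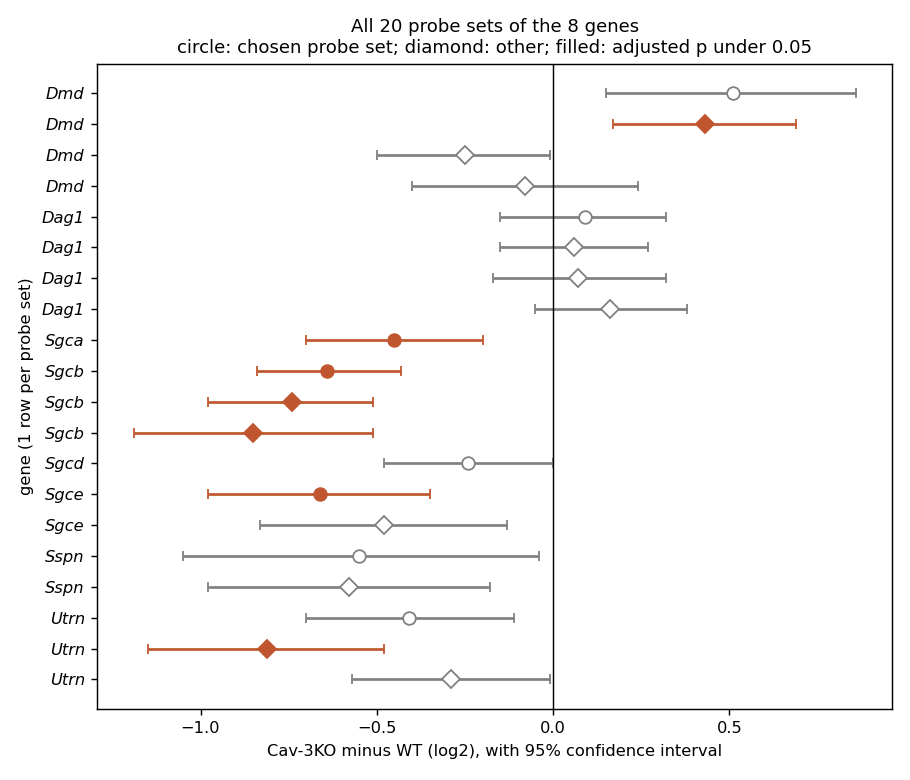
Difference between Cav-3KO and WT (x axis, log2) with its 95% confidence interval for each of the 20 probe sets, 1 per line, filled where the adjusted p by limma was under 0.05. All 3 Sgcb probe sets lie below 0 and are filled, while the 4 Dmd probe sets lie on both sides.

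Utrn encodes utrophin, the widely expressed relative of dystrophin, and lies on chromosome 10 at 12382187 to 12869888. The chosen probe set read 10.19, 10.42 and 10.16 in wild type and 9.84, 10.05 and 9.66 in knockout. Every knockout array was below every wild-type array, by at least 0.10, and the difference of −0.41 ± 0.13 (SE) missed the threshold (adjusted p = 0.0767). A second probe set fell by 0.81 ± 0.15 (adjusted p = 0.0131), from 7.76, 7.60 and 7.76 to 7.20, 6.64 and 6.83, and the third gave −0.29 ± 0.12 (adjusted p = 0.161). The 3 probe sets of Utrn shared a direction but not a call. With the mean of the 3 probe sets, array weights, the replicate number as a block or without Cav-3KO 2, Utrn passed the threshold (adjusted p = 0.0116, 0.0436, 0.0444 and 0.0349).

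Dmd encodes dystrophin on the X chromosome (82814664 to 85205050), where starts far apart give a full-length muscle form and shorter forms found in other cells. The chosen probe set read 6.45, 6.59 and 6.20 in WT 1 to 3 and 6.66, 7.17 and 6.93 in Cav-3KO 1 to 3. All knockout arrays were above wild type, by as little as 0.07, and the difference of 0.51 ± 0.15 (SE) missed the threshold (adjusted p = 0.0728). A second probe set rose by 0.43 ± 0.11, 1.35-fold (adjusted p = 0.0446), from 5.62, 5.81 and 5.62 to 5.96, 6.29 and 6.09. The remaining pair lay near the bottom of the arrays, at percentiles 7.0 and 5.3 of all probe sets, with differences of −0.25 ± 0.11 and −0.08 ± 0.14 (adjusted p = 0.167 and 0.781). The files used here do not say which dystrophin form each probe set reads. The chosen probe set passed without Cav-3KO 1 (0.64, adjusted p = 0.0430) and with muscle level as a covariate (0.67, adjusted p = 0.0314), whereas the mean of all 4 probe sets gave 0.15 (adjusted p = 0.282).

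Dag1 encodes dystroglycan, the laminin receptor at the centre of the complex, on chromosome 9 (108204861 to 108263977). Its values were 11.63, 11.72 and 11.64 in wild type and 11.89, 11.59 and 11.78 in knockout. Cav-3KO 2 was the lowest of the 6 arrays and Cav-3KO 1 the highest, so the groups overlapped. The difference was 0.09 ± 0.10 (SE, adjusted p = 0.646) with a 95% confidence interval of −0.15 to 0.32. The other 3 probe sets gave 0.06, 0.07 and 0.16, with adjusted p between 0.311 and 0.734. Counting any probe set of a gene, 4 of the 8 genes had 1 lower at the threshold (Sgca, Sgcb, Sgce and Utrn; 10.2% of all genes) and 1 had 1 higher (Dmd; 9.06% of all genes).

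Skeletal muscle lies next to the mammary fat pad, and the 24 skeletal muscle markers differed widely between arrays. Their mean was 7.27, 8.30 and 5.25 in WT 1 to 3 and 4.91, 6.01 and 6.53 in Cav-3KO 1 to 3, a range of 3.39 log2 units. By sign 21 of the 24 markers were below wild type, with 0 past the threshold in each direction by limma (0 higher and 1 lower at an unadjusted p under 0.05). Acta1, the skeletal muscle actin gene, read 12.28, 13.13 and 8.36 in wild type and 7.52, 10.17 and 10.99 in knockout. The fast myosin gene Myh4 followed the same order, with 10.16, 12.48 and 7.05 against 5.74, 9.53 and 10.04. Myl1, a myosin light chain gene, read 9.63, 10.78 and 8.98 against 7.83, 8.05 and 8.81.

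Sgca, the most muscle-restricted of the 8 genes, spanned 0.70 over the same arrays. Within wild type it had the order of the muscle list, highest in WT 2 and lowest in WT 3. Within knockout it did not: Cav-3KO 1, lowest for muscle, was highest for Sgca. WT 3 had less muscle signal than Cav-3KO 2 and 3 (5.25 against 6.01 and 6.53) but more Sgca (5.41 against 5.01 and 5.08). In a fit with genotype and the muscle list mean, Sgca changed by 0.05 ± 0.05 (SE) per log2 unit of muscle (adjusted p = 0.955 by limma). The slopes of the 24 muscle genes ran from −0.06 to 1.97, with a median of 1.12. These genes make up the list mean, so the average of their slopes is fixed by construction and is no independent benchmark for Sgca. With muscle level held in this fit the genotype difference of Sgca was −0.39 ± 0.12 (adjusted p = 0.105).

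Slopes on muscle level ranged from −0.22 for Sspn to 0.15 for Dmd. None of the 8 passed the threshold (adjusted p of 0.940 to 0.993 by limma). Sspn and Dmd were the 2 with an unadjusted p under 0.05 (0.0234 and 0.0401). Of all 45037 probe sets, 25 had a slope past the threshold and 2344 an unadjusted p under 0.05. With so few slopes called on the whole array, a miss does not show that a gene did not follow muscle. None of the 8 genes kept the array order of the muscle list within both genotypes, an order shared by 3.02% of all genes. Cavin4, the cavin of muscle cells, did keep it, with 5.16, 6.17 and 4.74 in wild type and 4.59, 4.70 and 4.99 in knockout. Its slope of 0.39 ± 0.09 (SE) did not pass the threshold (adjusted p = 0.627 by limma). Cav3, also a gene of muscle cells, did not keep the order and had a slope of 0.06 ± 0.05 (adjusted p = 0.942). With muscle level as a covariate Sgcb and Sgce kept their calls (−0.66 ± 0.11 and −0.79 ± 0.14, adjusted p = 0.0171 and 0.0211), and Sspn passed (−0.80 ± 0.18, adjusted p = 0.0419). For the genes whose groups overlapped, Pearson's r with the muscle list mean over 6 arrays was −0.27 for Dag1 and −0.17 for Sspn. Spearman's rho was −0.26 and −0.43, with two-sided exact permutation p between 0.419 and 0.738 and adjusted p of 0.919 to 0.942 over the 8 genes. Without the 2 arrays farthest from the median muscle level r was 0.18 and −0.33. No pooled correlation is given for the other 6 genes, whose groups did not overlap, though by as little as 0.04 for Sgcd and 0.07 for Dmd. A pooled value would mix their genotype difference with muscle level.

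**Figure D3:**
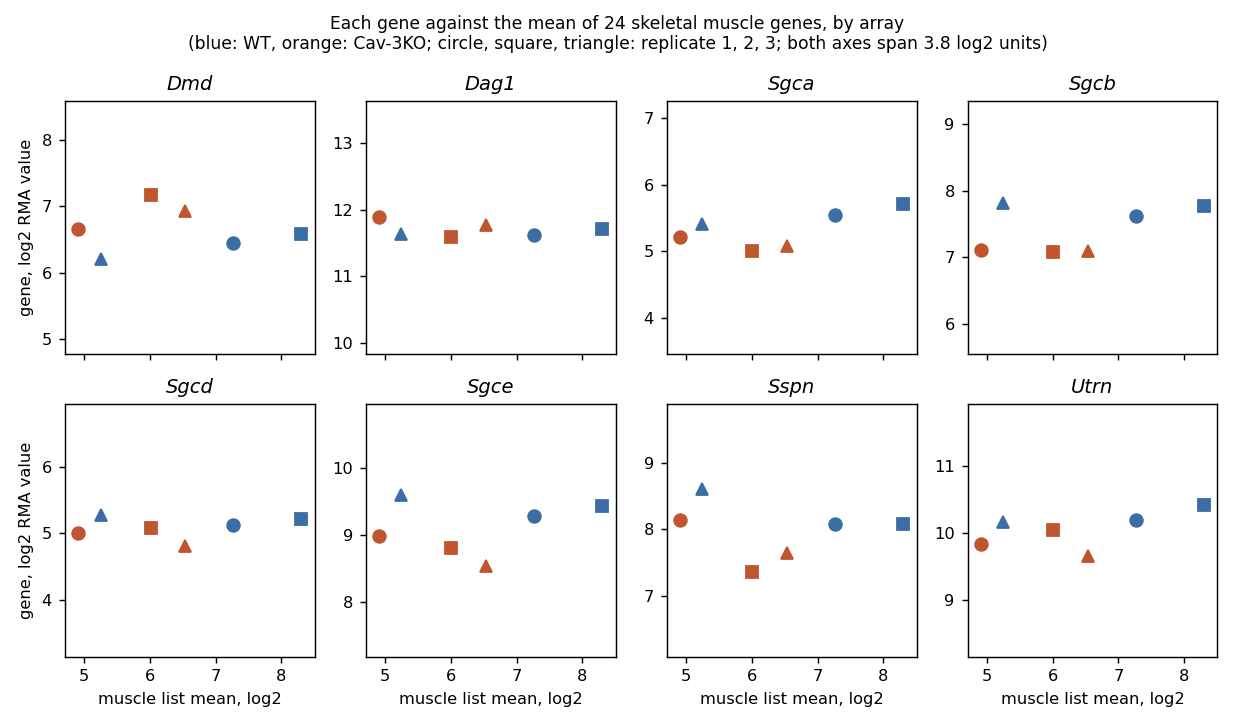
Log2 value of each gene (y axis) against the mean log2 value of 24 skeletal muscle genes (x axis) in the 6 arrays, with both axes to the same scale. The muscle mean runs from 4.91 to 8.30 while Sgca spans 0.70 and Sgcb 0.73, and the Sgcb groups do not overlap.

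Markers of other cells of the gland moved with genotype beside these genes. The mean of the white adipocyte markers was 11.22 to 11.61 in wild type and 10.55 to 10.90 in knockout, and 9 of 10 were below wild type by sign. The brown adipocyte mean was 7.99 to 9.05 against 6.76 to 6.85, with 9 of 9 below. Basal epithelial markers went the other way, from 8.20 to 8.39 in wild type to 9.02 to 9.38 in knockout, with 12 of 12 above, as did luminal markers (9.08 to 9.66 against 10.19 to 10.41, 9 of 11 above). Lymphocyte markers were at 7.75 to 8.15 against 7.14 to 7.32, with 8 of 8 below. Group ranges of these lists did not overlap, and their part in the falls of Sgcb, Sgce and Sgca and in the values of Dmd was not tested. The smooth muscle and pericyte list, which shares 4 genes with the basal list, ran from 9.14 to 9.35 against 9.36 to 9.48. Its genes did not move together. At the adjusted threshold 5 of 12 were higher and 2 lower, where 7.65% and 8.51% of all genes were. The 5 were Tagln and the 4 shared genes. Des and Cspg4 were lower (−0.74 and −0.98, adjusted p = 0.0108 and 0.00846 by limma). Ranges of the endothelial (8.56 to 8.73 and 8.46 to 8.67), fibroblast (11.61 to 11.92 and 11.48 to 12.03), Schwann cell (8.17 to 8.36 and 7.97 to 8.25) and macrophage lists (9.53 to 9.91 and 9.47 to 9.54) overlapped.

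Partners inside the cell came next. Among 8 measured genes of dystrobrevins, syntrophins, the dystrophin relative Drp2 and nitric oxide synthase, 1 rose and 0 fell by limma (2 and 0 at an unadjusted p under 0.05), with a median of 0.06. As background to this and the next lists, 7.65% of all genes were higher and 8.51% lower. At an unadjusted p under 0.05 those shares were 16.3% and 17.3%. Dtnb, the dystrobrevin of non-muscle tissues, rose by 1.09 ± 0.21 (SE), 2.13-fold (adjusted p = 0.0176), from 7.16, 6.81 and 7.09 to 8.09, 7.67 and 8.57. Both Dtnb probe sets were higher at the threshold. Its call was lost without WT 2 or WT 3 and with muscle level as a covariate (adjusted p = 0.0592, 0.0554 and 0.0527). Dtna, the dystrobrevin of muscle, gave 0.11 ± 0.10 (adjusted p = 0.522). Nos1, the neuronal nitric oxide synthase, gave 0.29 ± 0.11 (adjusted p = 0.143).

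Among 14 measured genes that build the laminin-binding sugar of dystroglycan, 1 rose and 2 fell by limma, with a median of 0.02. At an unadjusted p under 0.05, 1 rose and 4 fell. Over all genes 7.65% were higher and 8.51% lower at the adjusted threshold, and 16.3% and 17.3% at the unadjusted one. Large2, which extends that sugar chain, rose by 1.37 ± 0.15, 2.58-fold (adjusted p = 0.00270), from 6.16, 5.71 and 5.92 to 7.03, 7.45 and 7.41. Dolk, the dolichol kinase that supplies the lipid carrier of mannose, fell by 0.58 ± 0.10 (adjusted p = 0.00986). Pomt1, which attaches the first mannose, fell by 0.61 ± 0.14 (adjusted p = 0.0254), and lost its call without WT 1, WT 2 or any of the 3 knockout arrays (adjusted p of 0.0515 to 0.0758) and with muscle level as a covariate (0.0616).

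Outside the cell, 4 of 19 measured laminin and matrix genes rose and 0 fell by limma, with a median of 0.19. The shares over all genes were 7.65% and 8.51%. At an unadjusted p under 0.05, 6 rose and 0 fell, and without Cav-3KO 3, 2 rose at the adjusted threshold. Lama1, a laminin chain of epithelial basement membranes, rose by 1.89 ± 0.19, 3.70-fold (adjusted p = 0.00165), from 7.43, 6.81 and 7.04 to 8.69, 9.04 and 9.20. Lamb3 and Lama3, chains of the laminin that anchors basal epithelium, rose by 1.54 ± 0.14 and 0.86 ± 0.16 (adjusted p = 0.00135 and 0.0149). By its other probe set, the choice when identifiers with a suffix are left out, Lama3 gave 0.03 (adjusted p = 0.901). Lama3 also lost its call without Cav-3KO 3 (adjusted p = 0.0533). Agrn, a heparan sulphate proteoglycan that binds dystroglycan, rose by 0.62 ± 0.13 (adjusted p = 0.0232). Without WT 2, WT 3, Cav-3KO 1 or Cav-3KO 3, Agrn gave adjusted p of 0.0551 to 0.0746, and with the mean of its probe sets 0.106. Lama2, the laminin chain of muscle, gave 0.19 ± 0.11 (adjusted p = 0.319).

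**Figure D4:**
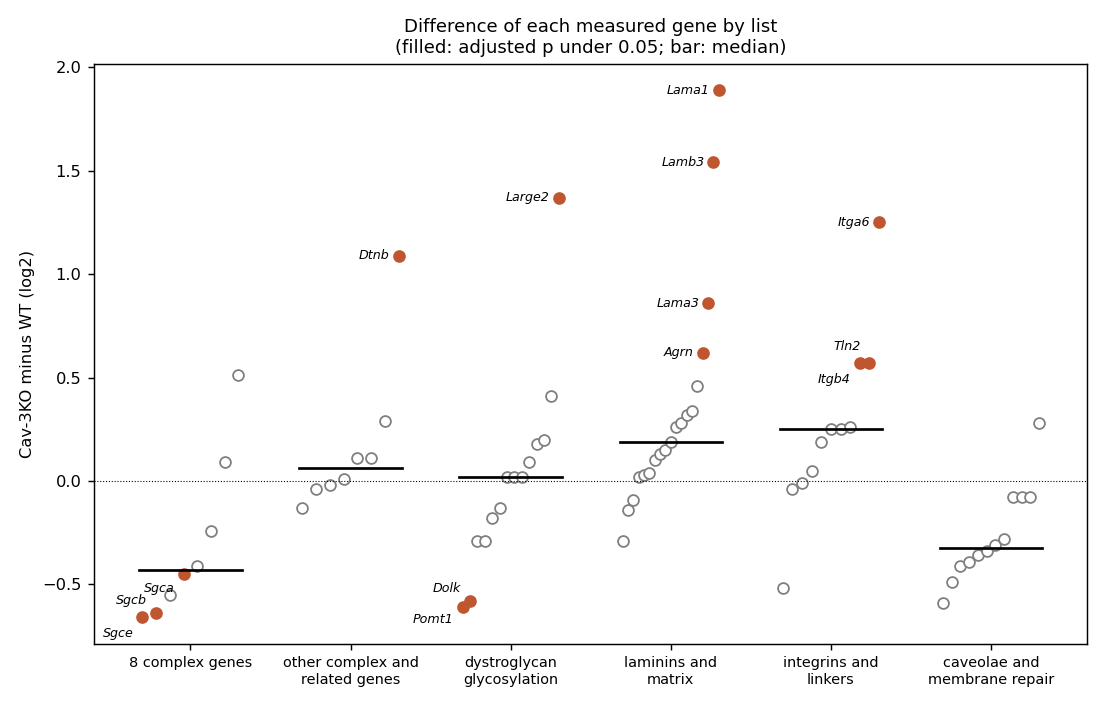
Difference between Cav-3KO and WT (y axis, log2) of each measured gene in the 8 complex genes and 5 related lists (x axis), filled where the adjusted p by limma was under 0.05, with the median as a bar. The filled points are negative for the complex genes and positive for the matrix and integrin lists.

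Integrins are the other laminin receptors, and 3 of 11 genes of laminin-binding integrins and their linkers rose while 0 fell by limma (5 and 1 at an unadjusted p under 0.05), with a median of 0.25. The shares over all genes were 7.65% higher and 8.51% lower at the adjusted threshold. Itga6 and Itgb4, which pair in the hemidesmosomes of basal epithelium, rose by 1.25 ± 0.16 and 0.57 ± 0.09 (adjusted p = 0.00388 and 0.00908). Itgb4 is also among the basal epithelial markers. Itga6 read 10.15, 10.18 and 9.90 in wild type and 11.00, 11.57 and 11.38 in knockout. Tln2, a talin that links integrins to actin, rose by 0.57 ± 0.13 (adjusted p = 0.0295). The Tln2 call was lost without WT 1, WT 2, Cav-3KO 1 or Cav-3KO 3 (adjusted p of 0.0692 to 0.0957), with muscle level as a covariate (0.0879) and with the mean of its probe sets (0.209). Itga7, the muscle laminin integrin, gave −0.52 ± 0.20 (adjusted p = 0.134), and passed without WT 2 (−0.72, adjusted p = 0.0433) and with muscle level as a covariate (−0.75, adjusted p = 0.0304).

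Caveola and membrane repair genes, Cav3 itself among them, gave 0 of 12 past the threshold by limma (5 lower and 0 higher at an unadjusted p under 0.05). By sign 11 of 12 were below wild type, with a median of −0.32. Dysf, the membrane repair protein dysferlin, gave −0.41 ± 0.13 (adjusted p = 0.0774). Cavin1, a coat protein of all caveolae, gave −0.36 ± 0.12 (adjusted p = 0.0868), and Cav1, the caveolin of adipocytes and endothelium, −0.39 ± 0.15 (adjusted p = 0.131). Without WT 1 Dysf passed (−0.53, adjusted p = 0.0433), and without Cav-3KO 2 Cavin1 did (−0.45, adjusted p = 0.0426). The count of 0 rests on the chosen probe sets. Cavin2 gave −0.31 ± 0.11 by its chosen probe set (adjusted p = 0.104), but 2 of its 3 probe sets were lower at the threshold. The mean of the Cavin2 probe sets gave −0.69 (adjusted p = 0.0106 by limma).

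The genes whose profile over the 6 arrays was most like each of the 8 genes were sought among 9097 genes at or above the median level, by Pearson's r as a description. Sgcd was nearest to the caveola genes Cavin1 and Cavin2 (r = 0.992 and 0.988) and to Pxdc1 (0.990). Sgcb was nearest to Gpd2, the mitochondrial glycerol phosphate dehydrogenase (0.999), and to Egln1 and Txnl4b (0.998 and 0.997). Sgce was nearest to Prkar2b, a regulatory subunit of protein kinase A (0.999), and to Dram1 and Acbd5 (0.997 each). Sgca was nearest to Mid1ip1, Galnt2 and Axl (0.996, 0.996 and 0.994), and Sspn to Pon2, Mturn and Rasd1 (0.991, 0.989 and 0.988). Utrn was nearest to Cast, Cdon and Gfpt2 (0.998, 0.996 and 0.995), and Dmd to Dhx16, Txnrd1 and Iars (0.998, 0.998 and 0.996). Dag1 had the loosest matches, Matn2, Stxbp4 and Dtx4 (0.989, 0.964 and 0.962). Such values are common over 6 arrays parted by genotype: 400 genes had r above 0.95 with Sgcb and 9 with Dag1.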

How the data were processed

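The authors deposited 1 table of log2 values, 1 per probe set and array, computed by RMA according to the submitters' processing notes. That method subtracts background and compresses folds of dim probe sets. It also forces 1 distribution on all arrays, which removes a shift shared by most transcripts. No source used here gives the RMA version or a genome build.

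Of 45101 deposited probe sets, 64 controls were left out and 45037 tested, with no filter on dim sets. The platform annotation gave 34945 sets 1 gene symbol and 932 several, and 9160 were unlisted and stay unnamed. Symbols were updated by Entrez identifier with a RefSeq table (GRCm38.p6), and 204 sets kept the older name. Groups and replicate numbers came from the sample titles. The 2 genotypes were fitted in limma (version 3.58.1, under R 4.3.3; lmFit and eBayes, two-sided, 4 residual degrees of freedom), with p-values adjusted by Benjamini-Hochberg over all probe sets and a threshold of 0.05. The fit was tested on simulated data. Exact permutation tests enumerated all splits or pairings of the arrays, with correlations and their adjustment from scipy 1.17.1. Genes named were all 8 complex genes and, of each related list, up to 6 past the threshold or else the 2 with the smallest p, the 3 brightest muscle markers, and the 3 genes most like each complex gene. Of lists with calls, a few genes that missed the threshold were added after their values were seen (Dtna, Nos1, Lama2 and Itga7), as were Cavin4 and, in the caveola list, Cav1 and Cavin2. Members and lists were chosen with earlier results of these data known. Same-numbered arrays of both genotypes did not all deviate together (correlations of −0.05, 0.19 and −0.02), so the numbers were not taken as pairs.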

Additional observations from a re-analysis of the deposited data

How the results depend on the processing

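The alternatives were other normalizations, a filter on dim probe sets, other variance and array weights, other probe set choices, other thresholds, the replicate number as a block, muscle level as a covariate and each array left out. No difference of the 8 genes changed sign in any of them. Sgcb kept its call in 16 of 16, Sgce in 12 of 16 and Sgca in 8 of 15. By the same count Dmd gained a call in 2, Sspn in 1 and Utrn in 4. Sgca and Sgcd had no value under the filter on dim sets. Leaving out 1 array gave 1 to 3 lower and 0 to 1 higher complex genes, 629 to 1718 higher and 606 to 1463 lower among all genes, 0 to 1 higher partners inside the cell, 1 to 2 lower glycosylation genes, 2 to 6 higher matrix genes, 0 to 1 lower integrin genes and 0 to 1 lower caveola genes.

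At an adjusted p of 0.01, 446 of all genes were higher and 421 lower. Complex genes then had 0 higher and 1 lower, partners inside the cell 0 higher, glycosylation genes 1 lower and matrix genes 2 higher. At 0.10, 2152 of all genes were higher and 2314 lower, 1 complex gene was higher and 4 lower, and 3 caveola genes were lower. With the muscle covariate 965 of all genes were higher and 1183 lower. In that fit 1 complex gene (Dmd) was higher and 3 lower, 0 partners were higher, and 1 glycosylation and 1 integrin gene lower. Probe sets without a suffix gave 2 higher matrix genes (there Sgce had −0.48, adjusted p = 0.0807), and the mean of probe sets gave 1 lower caveola gene (Cavin2). With the replicate block, Sgca lost its call and Utrn gained it (adjusted p = 0.0566 and 0.0444), 3 complex genes were lower and 0 higher, and the labels do not say that numbers pair the samples. Probe sets near the bottom of the array, such as the dimmest Dmd pair, limit what can be read at low signal. The cause of these changes was not tested.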
